A study of Homo sapiens with 36 samples.

Results

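The 40 genes described here are genes of the amino acid response that runs through the transcription factor ATF4. They were chosen by name, as ATF4 itself and genes widely described as its targets or partners, and by no threshold on their values. The choice was made with earlier results of these data known. All 40 were found among the 45478 gene identifiers of the deposited count table, and all 40 passed the main filter on low counts in every comparison. RNA of A498 and 786-O, 2 widely used lines grown from human clear cell kidney cancers, was sequenced in 36 libraries that form 12 groups of 3. Each line was grown as sunitinib-resistant cells and as parental cells. Sunitinib inhibits VEGF, PDGF and related receptor kinases, and the labels give 2 µM for the selection of A498 and 4 µM for that of 786-O. Each of these 4 cell states was treated for 24 h with avelumab, durvalumab or atezolizumab, antibodies that bind PD-L1, at 10 mg/mL as the labels write the dose. Every library therefore carries an antibody, and untreated libraries were not analysed here.

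ATF4 is made when the initiation factor eIF2 is phosphorylated, because its messenger RNA then escapes the general block of translation. The kinase GCN2 phosphorylates eIF2 when uncharged tRNA builds up, and other kinases do so under endoplasmic reticulum stress, viral RNA or haem shortage. With partners of the C/EBP family, ATF4 raises the genes of amino acid synthesis, amino acid import and tRNA charging, together with genes that end the response. ATF4 is controlled largely at translation, so the level of its messenger RNA is not a measure of its activity. Cystine import, serine and glycine supply and transsulfuration all feed glutathione, the main thiol buffer of the cell.

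Totals ran from 19994882 to 58122896 counts per library. Levels are given as CPM, the count scaled to a common library total. Log2 changes ± SE come from edgeR's quasi-likelihood test, which rescales libraries by TMM, whereas CPM uses raw totals. Against raw totals, TMM lowered the median log2 change of all genes between resistant and parental cells by 0.11 in 786-O and by 0.09 in A498 as labelled, and by at most 0.03 in the antibody comparisons. Differences between states therefore depend on the scaling where they are of that size. Counts scaled by library totals alone, an alternative added after the data were seen, are given beside them. A gene is called where its p, adjusted by the Benjamini-Hochberg method over all genes tested, is below 0.05. Counts of genes with an unadjusted p below 0.05 are given without the share of all genes, so they have no background. Nothing in the labels ties the 3 libraries of a group to separate cultures. The p-values therefore reflect the spread among these libraries alone, which may be technical. Batch labels follow the cell states, so that resistance cannot be told apart from batch, while the antibodies share 1 batch within a state. In bulk libraries, fewer cells that express a gene and less RNA per cell cannot be told apart either.

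The renal epithelial factor PAX8 was present in every state, with medians of 227 to 296 CPM. HIF1A, which encodes a hypoxia-inducible factor, separated the parental lines. The libraries labelled A498 resistant had a median of 9.0 CPM and A498 parental cells 295 CPM, while the 786-O libraries reached at most 10.3 CPM. Of 11 renal line markers, the median CPM in the libraries labelled A498 resistant was nearest to that of 786-O resistant cells for 7, HIF1A among them, on a scale of log2 of CPM plus 0.1. It was nearest to 786-O parental cells for CDH2, and to A498 parental cells for CDH6 and VIM, at 43.3 and 3189 CPM against 49.9 and 3480 CPM. Over all genes tested, the median size of the log2 change was 0.26 between the libraries labelled A498 resistant and 786-O resistant cells, and 0.61 between the same libraries and A498 parental cells. Which line these libraries come from was not tested, and they are named by their label throughout. Of the leukocyte markers, CD3D, CD3E, MS4A1, PTPRC and LYZ stayed at or below 0.141 CPM in each library. The summed level of the 10 leukocyte markers was 36.4 to 91.5 CPM over all libraries, and NCAM1 made up most of it in every state. The 5 endothelial markers summed to at most 2.85 CPM in any library.

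Target genes carry a C/EBP-ATF response element, a short composite site bound by ATF4 and a C/EBP partner. The letters TGATGNAAN were searched on both strands of the RefSeq promoter windows (GRCh38.p14), which run from 250 bases before to 50 bases after each start site. Of the 33 members with a window, 11 (33.3%) held a match, against 4.45% of all 27305 genes with a window. Per window the shares were 21.2% of 52 member windows and 3.61% of all 35116 windows. The members with a match were AARS1, ASNS, CARS1, CEBPG, CHAC1, GARS1, JDP2, MARS1, NARS1, SLC3A2 and SLC7A1. A match is a description of the letters and not a measured site. ALDH1L2, GPT2, NUPR1, PSPH, SHMT2, SLC7A11 and YARS1 were not searched.

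The matches given here are those of ASNS and CHAC1, whose control by ATF4 is well described, and those of the 4 genes with a match that an antibody comparison called. Capitals mark the matched letters, read 5′ to 3′ on the strand of the gene. ASNS (chr7:97872443-97872501) lies on the minus strand. CHAC1 (chr15:40953236-40953294), CEBPG (chr19:33374061-33374089), GARS1 (chr7:30594834-30594862), JDP2 (chr14:75427996-75428024) and MARS1 (chr12:57488053-57488081) lie on the plus strand. CHAC1, GARS1 and MARS1 hold the letters on the strand opposite to the gene, so that they read as NTTNCATCA here.
ASNS: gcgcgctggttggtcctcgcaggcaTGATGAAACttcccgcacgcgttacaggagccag
CHAC1: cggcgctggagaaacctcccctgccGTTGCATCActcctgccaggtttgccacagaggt
CEBPG: gcgcggcgtcTGATGCAACctgccggcaa
GARS1: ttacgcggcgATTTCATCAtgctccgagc
JDP2: tagccggggcTGATGCAACccgtcccgcc
MARS1: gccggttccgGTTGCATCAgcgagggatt
In JDP2, CEBPG, MARS1 and CHAC1 the 9 letters were the same, read on the strand opposite to the gene in MARS1 and CHAC1. The match began 16 bases before the start site of JDP2, 42 before that of CEBPG and 5 before that of MARS1, against 68 before that of ASNS and 210 before that of CHAC1.

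The levels of the 40 genes spanned more than 2 orders of magnitude within each state. Per kilobase of exon, SLC7A5, the light chain of the leucine exchanger, was the highest member in every state, at 682 CPM per kb in the libraries labelled A498 resistant, 427 in A498 parental cells, 574 in resistant 786-O cells and 379 in parental 786-O cells. PSAT1, the transaminase of serine synthesis, DDIT4, an inhibitor of mTORC1, and ATF4 followed at 123 to 236 CPM per kb, except that GARS1, the glycyl-tRNA synthetase, and SLC3A2, the heavy chain of the exchanger, stood ahead of DDIT4 in A498 parental cells. At the low end, ALDH1L2 and PHGDH were below 0.3 CPM per kb in every state except A498 parental cells. ASNS, the asparagine synthetase that is usually an abundant target, had a mean of 1.32 CPM in the libraries labelled A498 resistant, 3.05 CPM in A498 parental, 1.24 CPM in 786-O resistant and 0.744 CPM in 786-O parental cells. The annotation places AC079781.5 over 44.6% of the exonic length of ASNS on the same strand, so the count of ASNS is uncertain and is not read as its level.

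**Figure D1:**
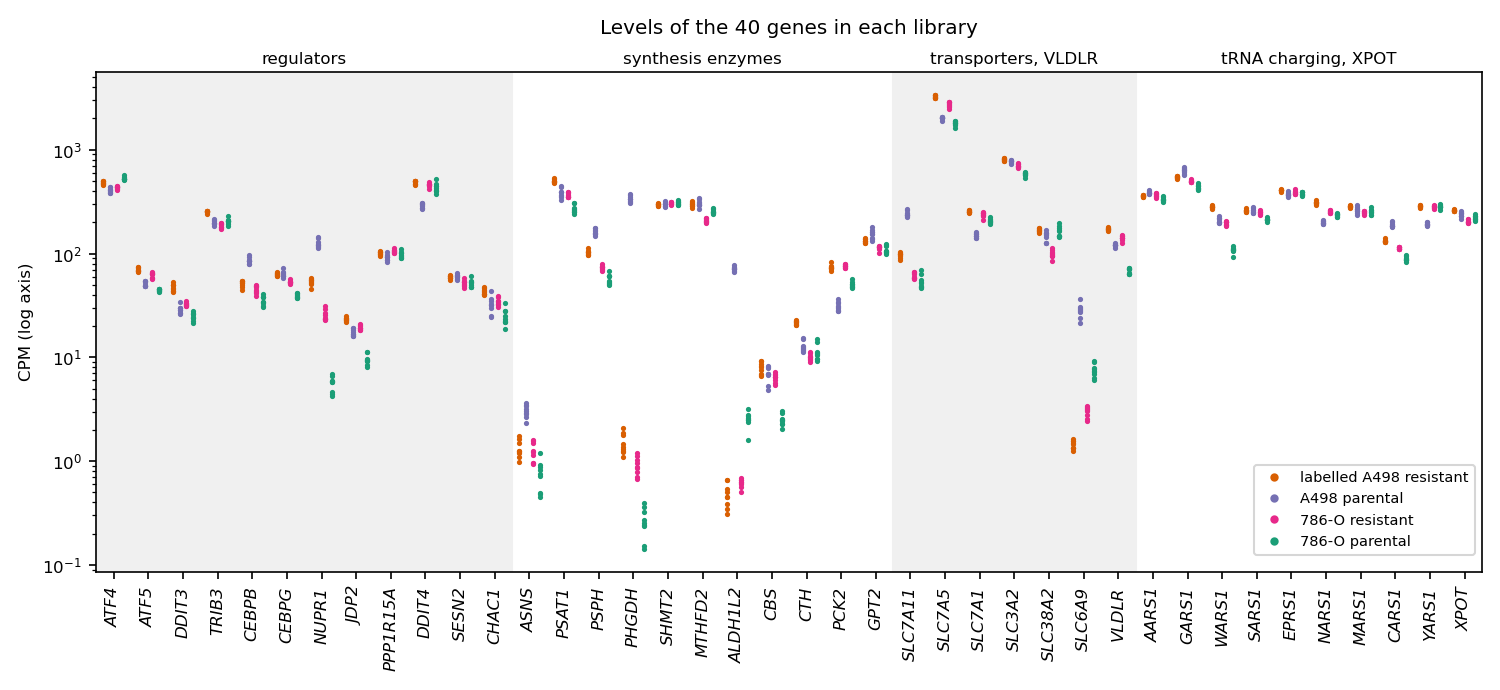
CPM of the 40 genes in each of the 36 libraries, on a log axis, grouped by role; each point is 1 library and colours mark the 4 cell states. PHGDH, ALDH1L2 and SLC6A9 stand apart between states, at means of 337, 71.7 and 28.3 CPM in A498 parental cells.

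The counting could also mix neighbouring genes for 5 further members, whose exons overlap a gene on the other strand over 10% of their length or more. These are DDIT4 (41.2% shared with DDIT4-AS1, which was counted at 192 to 316 CPM per state), MTHFD2 (27.2% with SLC4A5), DDIT3 (27.2% with MARS1), ATF5 (21.2% with NUP62) and CEBPB (11.8% with CEBPB-AS1). CBS has a near copy on the same chromosome, CBSL, whose mean was 0.0417 to 0.208 CPM per state. Another 12 members shared less than 10%, namely CARS1, GARS1, JDP2, MARS1, SHMT2, ALDH1L2, SLC7A11, SLC7A5, SLC6A9, VLDLR, WARS1 and YARS1. Values of these members are uncertain to that extent.

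Antibodies were compared first, within each cell state. In A498 parental cells, 16 of the 40 members were higher under avelumab than under atezolizumab and none was lower, where 3.39% of all 18372 genes tested were called and 1.71% were called higher. The calls covered 7 of the 11 enzymes of amino acid and folate metabolism, 4 of the 10 genes of tRNA charging and export, 3 of the 12 regulators and 2 of the 7 transporters and receptors. The differences were small, with log2 changes of 0.13 to 0.50 among the called genes. Over all 40 members the median log2 change was 0.13, and 37 of 40 were positive, beside a median of -0.00 over all genes, of which 9024 were positive. The libraries did not overlap for 25 members, each higher under avelumab, against 11.6% of all genes that were higher without overlap.

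ATF4 (chromosome 22, 39519695 to 39522685 on GRCh38) had 439, 438 and 409 CPM in the 3 avelumab libraries of A498 parental cells, against 388, 385 and 385 CPM in the 3 atezolizumab libraries. Each avelumab library lay above each atezolizumab library, and the durvalumab libraries, at 405, 419 and 403 CPM, lay above all atezolizumab libraries and overlapped with avelumab. The log2 change from atezolizumab to avelumab was 0.14 ± 0.03 (edgeR adjusted p = 0.0174). Among its partners, CEBPG, which dimerises with ATF4, was called at 0.16 ± 0.05 (edgeR adjusted p = 0.0457), whereas CEBPB, at -0.07, was not called. The stress-induced chromatin protein NUPR1 had 144, 142 and 125 CPM under avelumab, against 120, 113 and 119 CPM under atezolizumab (log2 change 0.22 ± 0.05, edgeR adjusted p = 0.0378). The regulators that mark the pro-apoptotic end of the response, DDIT3 and TRIB3, were not called, with log2 changes of 0.07 and 0.10.

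The 4 largest changes among called genes fell on sulfur amino acids, glycine uptake and small neutral amino acids. CBS, the first enzyme of transsulfuration, had 7.93, 8.09 and 8.29 CPM under avelumab, against 6.97, 5.34 and 4.90 CPM under atezolizumab. Its log2 change was 0.50 ± 0.10 (edgeR adjusted p = 0.00466), on 160 to 322 counts per library of these groups. CTH, the second enzyme, had 15.1, 15.4 and 12.7 CPM under avelumab, against 11.7, 11.5 and 11.2 CPM under atezolizumab (log2 change 0.33 ± 0.07, edgeR adjusted p = 0.00856). Both enzymes of the route from homocysteine to cysteine were therefore higher in each avelumab library than in any atezolizumab library. SLC6A9, the glycine transporter, had 30.4, 36.3 and 29.9 CPM under avelumab, against 27.1, 23.7 and 21.6 CPM under atezolizumab (log2 change 0.41 ± 0.09, edgeR adjusted p = 0.0235). SLC38A2, an importer of alanine, glutamine and other small neutral amino acids, had 156, 169 and 154 CPM under avelumab, against 127, 126 and 127 CPM under atezolizumab (log2 change 0.33 ± 0.04, edgeR adjusted p = 6.23e-06). The 3 atezolizumab libraries of SLC38A2 differed little among themselves, and the avelumab libraries stood well above them.

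All 3 enzymes of serine synthesis from 3-phosphoglycerate were called. PSAT1 averaged 421 ± 29.7 CPM under avelumab and 345 ± 17.4 CPM under atezolizumab (SD, n = 3 each), a log2 change of 0.28. PHGDH, the first enzyme of that route, differed by 0.16 and PSPH, the last, by 0.15. MTHFD2 of mitochondrial folate metabolism (0.17) and GPT2, the mitochondrial alanine transaminase (0.30), were also called. SHMT2 (0.12), PCK2 (0.24) and ALDH1L2 (0.09) were not called, nor was the uncertain ASNS (0.36). Of the synthetases, MARS1 (0.19), GARS1 (0.16) and SARS1 (0.13) were called, as was the tRNA exporter XPOT (0.14), and AARS1, WARS1, EPRS1, NARS1, CARS1 and YARS1 were not, at 0.04 to 0.11. The exchanger genes SLC7A5 and SLC3A2 had log2 changes of 0.03 and -0.01 and were not called. CHAC1, which degrades glutathione, had a log2 change of 0.49 ± 0.13 that missed the threshold (edgeR adjusted p = 0.112), with 37.3 ± 5.96 CPM under avelumab and 26.5 ± 2.97 CPM under atezolizumab (SD, n = 3 each).

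**Figure D2:**
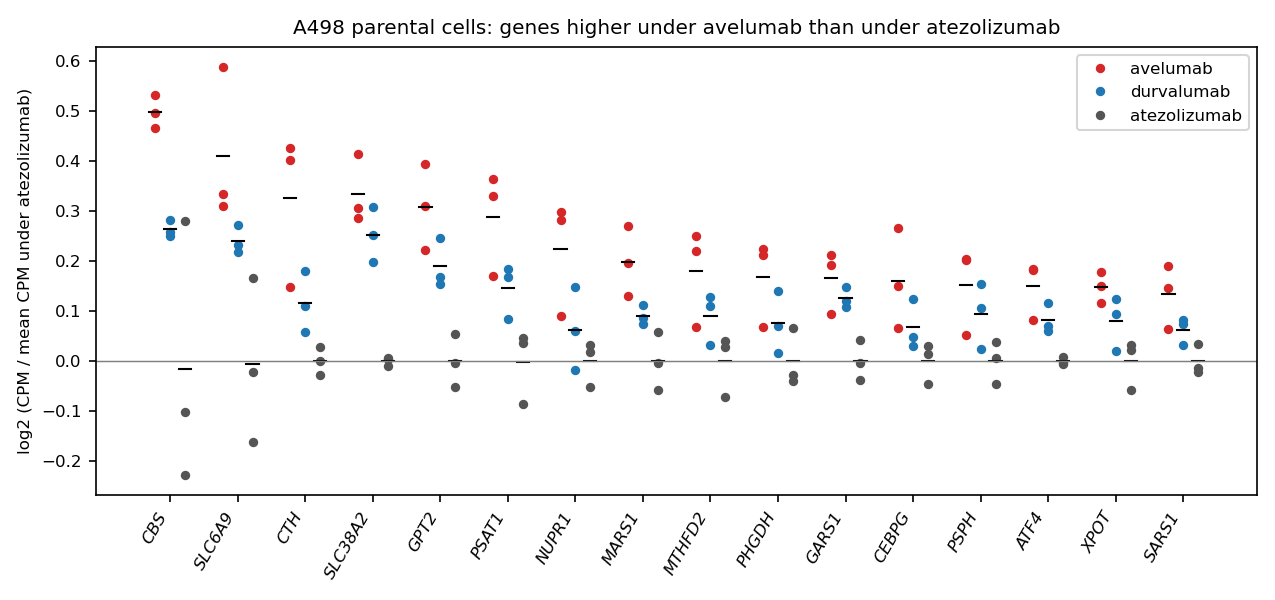
Log2 of CPM over the mean CPM under atezolizumab, for the 16 called genes in the 9 libraries of A498 parental cells; points are libraries, bars are means of 3, and genes run from the largest fitted change on the left. For CBS the 3 avelumab libraries (7.93 to 8.29 CPM) lie above all 3 atezolizumab libraries (4.90 to 6.97 CPM), and for SLC38A2 the durvalumab libraries (145 to 157 CPM) also lie above those of atezolizumab.

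The number of calls in A498 parental cells depended on single libraries, whereas the direction did not. Without atezolizumab replicate 1, 2 or 3, the members called between avelumab and atezolizumab numbered 8, 9 and 4, and without avelumab replicate 1 or 2 they numbered 10 and 6, each of them higher under avelumab. Leaving out avelumab replicate 3 gave 21. Calls over all genes moved too, at 1.68%, 2.99%, 1.39%, 4.07%, 0.756% and 2.56% in these fits, in the same order. SLC38A2, PSAT1 and GPT2 kept their calls under each alternative. The ATF4 call ended without atezolizumab replicate 1 or 3 (adjusted p = 0.0631 and 0.0916) or avelumab replicate 1 or 2 (adjusted p = 0.0723 and 0.183). The CEBPG call held without avelumab replicate 3 and ended under the other 8 omissions (adjusted p of 0.0518 to 0.433), with DESeq2 (adjusted p = 0.0738) and under a strict filter of at least 5 CPM in 3 libraries (adjusted p = 0.0505). The NUPR1 call ended without any of the atezolizumab libraries, without avelumab replicate 1 or 2 and without durvalumab replicate 1 (adjusted p of 0.0753 to 0.186), and under the strict filter (adjusted p = 0.0515). Omissions of 1 library ended the calls of SARS1 in 8 cases, PSPH in 7, MTHFD2 in 6, PHGDH in 5, GARS1 and XPOT in 3 each and MARS1 in 2. PSPH was not called with DESeq2 either (adjusted p = 0.051). The CBS call ended without atezolizumab replicate 3 (adjusted p = 0.0608), as did the CTH call (adjusted p = 0.055), which also ended without avelumab replicate 2 (adjusted p = 0.1). The SLC6A9 call ended without atezolizumab replicate 2 (adjusted p = 0.101) and without durvalumab replicate 3 (adjusted p = 0.0609). The share of mitochondrially encoded counts moved with the same groups, at 2.66% to 2.83% under avelumab and 2.61% to 2.97% under durvalumab, against 2.46% to 2.63% under atezolizumab, and its part in these differences was not tested.

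Genes around the response were read in the same contrast. Of 18 further targets of ATF4 that were tested, 4 were called, all higher under avelumab, namely STC2 (0.29), the stress cytokine GDF15 (0.22), the synthetase TARS1 (0.15) and VEGFA (0.13). Of 18 chaperones and sensors of the unfolded protein response in the endoplasmic reticulum, 1 was called, HERPUD1 (0.17). By edgeR, 0 of 18 genes of eIF2 phosphorylation and its reversal, 0 of 11 other cytosolic synthetases and scaffold proteins and 0 of 16 mitochondrial synthetases were called. The unadjusted p was below 0.05 for 4, 1 and 2 of them, with median log2 changes of 0.01, -0.01 and -0.00, and DESeq2 calls were not counted for these lists. Of the 13 called members with a promoter window, 3 held the element, against 8 of the 20 members that were not called.

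Durvalumab against atezolizumab called 3 members in A498 parental cells, all higher, where 2.8% of all genes were called and 1.78% were called higher. Called genes were higher for 63.5% of all calls, and for 73.6% when scaled by library totals alone. SLC38A2 had 145, 151 and 157 CPM under durvalumab, against 127, 126 and 127 CPM under atezolizumab (log2 change 0.24 ± 0.04, edgeR adjusted p = 0.000459). PPP1R15A, the phosphatase subunit that removes phosphate from eIF2, had 103, 95.4 and 92.3 CPM under durvalumab, against 82.5, 85.9 and 86.4 CPM under atezolizumab (log2 change 0.18 ± 0.04, edgeR adjusted p = 0.0119). GPT2 had 154, 163 and 153 CPM under durvalumab, against 142, 132 and 137 CPM under atezolizumab (log2 change 0.18 ± 0.04, edgeR adjusted p = 0.0126). For each of the 3 genes the durvalumab libraries lay above all atezolizumab libraries. Over the 40 members the median log2 change was 0.06, beside -0.00 over all genes, and 34 were positive. The share of all genes with a positive change is not given for this pair. Without overlap, 15 members were higher and 0 lower under durvalumab, against 12.7% and 8.15% of all genes. The count of called members was 1 without atezolizumab replicate 3 or durvalumab replicate 1, and 5 without avelumab replicate 2. Of all genes, 0.697%, 0.616% and 2.40% were called in these fits, in the same order. The PPP1R15A call ended without atezolizumab replicate 1 or 3 (adjusted p = 0.0702 and 0.0548) or durvalumab replicate 1 (adjusted p = 0.215), and the GPT2 call without atezolizumab replicate 2 or 3 (adjusted p = 0.0601 and 0.0903) or durvalumab replicate 1 or 2 (adjusted p = 0.0734 and 0.0805).

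Between durvalumab and avelumab, no member was called in A498 parental cells by edgeR or DESeq2, where 0.0599% of all genes were called by edgeR. The log2 change was negative for 35 of 40 members, with a median of -0.09 beside 0.00 over all genes, and 21 members had an unadjusted p below 0.05. The shares of all genes for these counts are not given here. Without overlap, 6 members were lower and 0 higher under durvalumab, against 5.08% and 6.56% of all genes. Without avelumab replicate 3, 4 members were called lower under durvalumab, where 0.723% of all genes were called. Avelumab and durvalumab were each set against the same atezolizumab libraries above, so the shared controls tie those comparisons together.

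In 786-O parental cells, 3 members were higher under avelumab than under atezolizumab, where 4.34% of all genes were called and 2.71% were called higher. Called genes were higher for 62.5% of all calls, and for 73.5% when scaled by library totals alone. PSPH, the serine phosphatase, had 60.9, 67.6 and 61.2 CPM under avelumab, against 49.8, 50.7 and 51.5 CPM under atezolizumab (log2 change 0.31 ± 0.05, edgeR adjusted p = 0.000269). MARS1, the methionyl-tRNA synthetase, had 261, 278 and 251 CPM under avelumab, against 233, 233 and 243 CPM under atezolizumab (log2 change 0.14 ± 0.04, edgeR adjusted p = 0.0174). Neither gene overlapped between these groups. Without overlap, 7 members were higher and 0 lower under avelumab, against 14.6% and 9.26% of all genes. JDP2, a repressor of the same factor family, had 11.3, 11.3 and 9.20 CPM under avelumab, against 8.0, 8.48 and 9.52 CPM under atezolizumab. Its libraries overlapped, and its log2 change was 0.29 ± 0.08 (edgeR adjusted p = 0.0482). ATF4 had a log2 change of 0.07 ± 0.03 (edgeR adjusted p = 0.238), with 543, 571 and 526 CPM under avelumab and 507, 518 and 524 CPM under atezolizumab. SLC38A2 had 175, 198 and 169 CPM under avelumab, against 148, 145 and 146 CPM under atezolizumab, without overlap, and its log2 change of 0.29 ± 0.08 missed the threshold (edgeR adjusted p = 0.0784). The median log2 change of the 40 members was 0.08, beside 0.00 over all genes, and 28 were positive. The share of all genes with a positive change is not given for this pair.

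The PSPH call was kept under each alternative. There was 1 call without atezolizumab replicate 1 or 2 or avelumab replicate 2, 5 without atezolizumab replicate 3 or durvalumab replicate 1, and 6 without durvalumab replicate 3. Of all genes, 2.33%, 3.19%, 1.38%, 2.29%, 5.37% and 5.71% were called in these fits, in the same order. The MARS1 call ended without atezolizumab replicate 1 or 2 (adjusted p = 0.0859 and 0.0649) or avelumab replicate 2 (adjusted p = 0.15). The JDP2 call ended under 5 of the 9 omissions, namely atezolizumab replicates 1 and 2 (adjusted p = 0.231 and 0.121), avelumab replicates 1 and 2 (adjusted p = 0.145 and 0.251) and durvalumab replicate 2 (adjusted p = 0.0797). DESeq2 did not call it either (adjusted p = 0.083), nor did edgeR after the strict filter (adjusted p = 0.0555).

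Durvalumab against atezolizumab called 2 members lower in 786-O parental cells, where 1.82% of all genes were called. DDIT3, the pro-apoptotic factor also called CHOP, had 24.1, 21.4 and 24.4 CPM under durvalumab, against 27.0, 25.9 and 27.9 CPM under atezolizumab (log2 change -0.23 ± 0.06, edgeR adjusted p = 0.0487). PPP1R15A had 90.6, 90.9 and 92.0 CPM under durvalumab, against 102, 94.1 and 110 CPM under atezolizumab (log2 change -0.18 ± 0.04, edgeR adjusted p = 0.0329). Neither gene overlapped between the groups, but both calls were close to the threshold. Without overlap, 2 members were lower and 9 higher under durvalumab, against 6.77% and 12.5% of all genes. The median log2 change of the 40 members was positive whichever library was left out, at 0.01 to 0.06. No member was called without atezolizumab replicate 1 or 3 or durvalumab replicate 2 or 3, and 1 was called without atezolizumab replicate 2 or avelumab replicate 1. Of all genes, 1.55%, 0.659%, 0.588%, 1.08%, 1.04% and 1.78% were called in these fits, in the same order. Without atezolizumab replicate 3 the log2 change of PPP1R15A was -0.12 (adjusted p = 0.23), and its call also ended without avelumab replicate 3 or durvalumab replicate 1 (adjusted p = 0.0566 and 0.0573). Under the strict filter neither gene was called (adjusted p = 0.0669 for DDIT3 and 0.0525 for PPP1R15A), and with DESeq2 DDIT3 was not (adjusted p = 0.0566). Scaled by library totals alone, neither was called (adjusted p = 0.0796 for DDIT3 and 0.054 for PPP1R15A), and VLDLR was called higher. No member was called between durvalumab and avelumab by edgeR or DESeq2, where 0% of all genes were called by edgeR and 7 members had an unadjusted p below 0.05. Without atezolizumab replicate 1, 1 member was called lower under durvalumab, where 0.102% of all genes were called.

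Few members were called between antibodies in resistant cells. In 786-O resistant cells NUPR1 was the only member called between avelumab and atezolizumab, where 1.21% of all genes were called. It had 31.4, 29.1 and 26.9 CPM under avelumab, against 23.4, 23.1 and 23.6 CPM under atezolizumab, without overlap (log2 change 0.30 ± 0.07, edgeR adjusted p = 0.0255). The share of mitochondrially encoded counts had a median of 1.99% in the same avelumab libraries and 2.37% in the atezolizumab libraries, without overlap, and its part in this difference was not tested. The NUPR1 call ended without any of the 3 atezolizumab libraries (adjusted p = 0.087, 0.149 and 0.101) and without avelumab replicate 1 or 2 (adjusted p = 0.0698 and 0.103). A further member was called without durvalumab replicate 1, where 2.61% of all genes were called. Without overlap, 9 members were higher and 5 lower under avelumab than under atezolizumab, against 14.4% and 9.02% of all genes. No member was called by edgeR between durvalumab and atezolizumab (0% of all genes, 5 members with an unadjusted p below 0.05, 0 by DESeq2) or between durvalumab and avelumab (0.387% of all genes, 5 members with an unadjusted p below 0.05, 1 by DESeq2). For that last pair, 1 member was called lower under durvalumab without avelumab replicate 3 (0.214% of all genes called) and 2 without durvalumab replicate 1 (4.63%). Without overlap, 1 member was higher and 8 lower under durvalumab than under avelumab, against 5.51% and 6.65% of all genes. Between durvalumab and atezolizumab, 5 were higher and 2 lower without overlap, against 12.3% and 6.48%. In the libraries labelled A498 resistant, no member was called by edgeR or DESeq2 in any pair. All genes were called at 0%, 0.00571% and 0.0171% there for avelumab against atezolizumab, durvalumab against atezolizumab and durvalumab against avelumab, and 2, 8 and 4 members had an unadjusted p below 0.05. The shares of all genes for these last counts are not given here. Without overlap, 4 members were higher and 0 lower for the first pair, against 4.95% and 5.15% of all genes. For the second pair 11 were higher and 1 lower, against 6.94% and 6.54%, and for the third 9 and 3, against 5.75% and 5.57%. Without avelumab replicate 1, 2 members were called higher under durvalumab than under avelumab, where 0.92% of all genes were called.

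**Figure D3:**
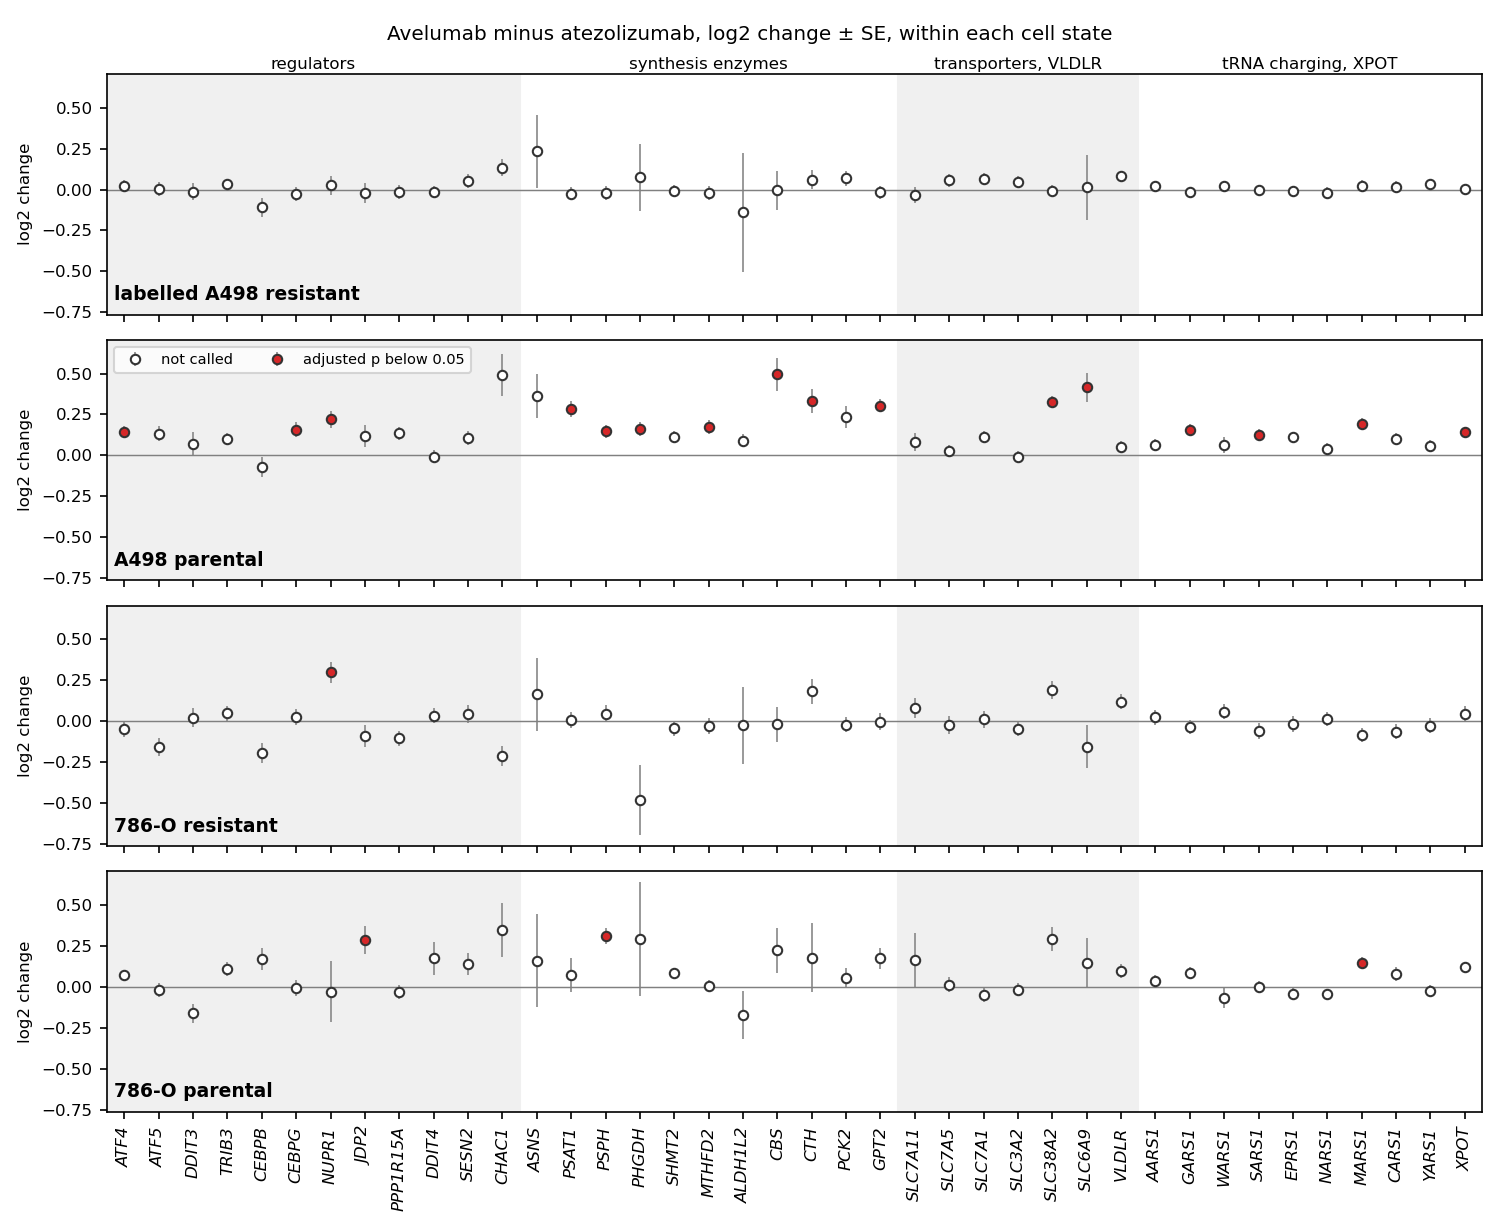
Log2 change ± SE of each of the 40 genes from atezolizumab to avelumab within each cell state, with filled points where the edgeR adjusted p is below 0.05. In A498 parental cells 16 genes are filled and 37 lie above 0, whereas 3 are filled for 786-O parental cells, 1 for 786-O resistant cells and 0 for the libraries labelled A498 resistant.

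Whether resistance altered an antibody difference was tested directly. In A498 as labelled, the avelumab difference was smaller in the libraries labelled resistant than in parental cells for 3 members, where 0.329% of all genes were called. SLC38A2 had 166, 177 and 168 CPM under avelumab and 173, 175 and 166 CPM under atezolizumab in the libraries labelled A498 resistant, which overlap, while its parental libraries did not. Its difference in log2 change was -0.33 ± 0.05 (edgeR adjusted p = 0.00175). PSAT1 (-0.30 ± 0.06, edgeR adjusted p = 0.0286) and GPT2 (-0.31 ± 0.06, edgeR adjusted p = 0.00819) were the other calls. SLC38A2 was also called for durvalumab (-0.31 ± 0.05, edgeR adjusted p = 0.00161), where 0.987% of all genes were called. The avelumab count was 1 without replicate 2 of atezolizumab in the libraries labelled A498 resistant or replicate 2 of avelumab in A498 parental cells. The shares of all genes called in these 2 fits are not given here. The PSAT1 call ended without atezolizumab replicate 1 or 2 (adjusted p = 0.104 and 0.0536) or avelumab replicate 2 or 3 (adjusted p = 0.0642 and 0.0583) of the libraries labelled A498 resistant, and without parental atezolizumab replicate 3 or avelumab replicate 2 (adjusted p = 0.108 and 0.156). The GPT2 call ended without the 2 libraries that brought the count to 1 (adjusted p = 0.0536 and 0.087). SLC38A2 kept both calls under each alternative.

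In 786-O the avelumab difference of MARS1 depended on the state, at -0.09 in resistant and 0.14 in parental cells, a difference of -0.22 ± 0.05 (edgeR adjusted p = 0.0406), where 1.2% of all genes were called. This call ended under 10 of the 24 alternatives, resistant avelumab replicate 3 among them (adjusted p = 0.0963). Members called in this test numbered 0 without atezolizumab replicate 1, 2 or 3 or avelumab replicate 2 of resistant cells and without atezolizumab replicate 1 or 2, avelumab replicate 1 or 2 or durvalumab replicate 2 of parental cells. They numbered 3 without resistant avelumab replicate 1 or parental atezolizumab replicate 3, and 2 without durvalumab replicate 1 or 2 of resistant cells or durvalumab replicate 1 or 3 of parental cells. The shares of all genes called in these fits are not given here. No member was called for durvalumab in 786-O by edgeR or DESeq2 (0.0516% of all genes, 2 members with an unadjusted p below 0.05). Between the parental lines, the avelumab difference was called for no member by edgeR or DESeq2, where 1.07% of all genes were called. The unadjusted p was below 0.05 for 13 members there, and 31 of 40 had the larger difference in A498. The median of this difference over all genes was 0.00, and the shares of all genes for these counts are not given here.

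Resistant and parental cells differed at most genes, so a call of a single member carries little here. In 786-O, 34 of 40 members were called (21 higher and 13 lower in resistant cells), beside 83.8% of all genes, with 43.6% called higher and 40.2% called lower. Scaled by library totals alone, 25 members were higher and 7 lower, so that 78.1% of called members were higher and not 61.8%. EPRS1 and SESN2, called lower at log2 changes of -0.07 and -0.10, then turned to 0.04 and 0.00 and were not called, and CTH, YARS1, MARS1 and SHMT2 were not called either. The share of mitochondrially encoded counts was 1.93% to 2.71% in resistant and 1.49% to 2.08% in parental libraries, and its part in these differences was not tested. Under atezolizumab, avelumab and durvalumab taken singly, 71.9%, 73.1% and 71.2% of all genes were called, and 15 members were higher and 8 lower under every antibody. The share of all genes called in the same direction under every antibody was not counted, so these counts have no background. The median log2 change of the members was 0.10 and that of all genes 0.03. A log2 change beyond 1 in size was found for 5 members, against 20.2% of all genes. By role, 7 of 12 regulators were higher and 3 lower, 6 of 11 synthesis enzymes were higher and 4 lower, 4 of 7 transporters and receptors were higher and 2 lower, and 4 of 10 genes of tRNA charging were higher and 4 lower.

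ATF4 was lower in 786-O resistant cells, where its 9 libraries ran from 406 to 448 CPM with a median of 436, against 507 to 571 CPM with a median of 524 in 786-O parental cells. The states did not overlap, and the log2 change was -0.40 ± 0.02 (edgeR adjusted p = 2.08e-16). It was -0.35, -0.46 and -0.39 under atezolizumab, avelumab and durvalumab. NUPR1 moved the other way, with 23.1 to 31.4 CPM and a median of 23.7 in resistant cells, against 4.22 to 6.97 CPM and a median of 5.84 in parental cells. That made NUPR1 4.23-fold higher (log2 change 2.08 ± 0.07, edgeR adjusted p = 1.75e-16). JDP2 was 1.88-fold higher (log2 change 0.91 ± 0.04), with 18.1 to 20.7 CPM in resistant and 8.0 to 11.3 CPM in parental cells.

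Enzymes of synthesis moved in both directions in 786-O. In the mitochondrial folate branch, ALDH1L2, which makes NADPH by oxidising formyl-tetrahydrofolate, had 0.505 to 0.686 CPM with a median of 0.624 in resistant cells, against 1.59 to 3.19 CPM with a median of 2.53 in parental cells. It was 4.44-fold lower (log2 change -2.15 ± 0.10, edgeR adjusted p = 1.1e-18), on 21 to 32 counts per resistant library. MTHFD2 was 1.31-fold lower (log2 change -0.39 ± 0.03), with means of 209 CPM in resistant and 254 CPM in parental cells. In serine synthesis, PHGDH was 3.26-fold higher (log2 change 1.71 ± 0.16, edgeR adjusted p = 2.25e-11), but its level was low in both states, at 0.678 to 1.20 CPM with a median of 0.873 in resistant cells and 0.142 to 0.396 CPM with a median of 0.256 in parental cells. PSAT1 and PSPH were higher at log2 changes of 0.34 and 0.27. CBS was 2.36-fold higher (log2 change 1.24 ± 0.07), with 5.46 to 7.29 CPM in resistant and 2.04 to 3.06 CPM in parental cells, while CTH was lower (log2 change -0.28 ± 0.08), a call that ended with library totals alone (-0.17, adjusted p = 0.0744).

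SLC38A2 and SLC6A9, importers of neutral amino acids and of glycine, were lower in 786-O resistant cells. SLC38A2 ran from 85.3 to 114 CPM with a median of 99.4 in resistant cells, against 145 to 198 CPM with a median of 165 in parental cells (log2 change -0.83 ± 0.04, edgeR adjusted p = 1.1e-14). SLC6A9 ran from 2.42 to 3.37 CPM with a median of 3.08 in resistant cells, against 5.99 to 9.31 CPM with a median of 7.43 in parental cells (log2 change -1.44 ± 0.08, edgeR adjusted p = 6.64e-16). Neither gene overlapped between the states. The exchanger genes SLC7A5 and SLC3A2 were higher, at log2 changes of 0.49 and 0.16, and the cystine importer SLC7A11 was not called (0.09 ± 0.07, edgeR adjusted p = 0.273). VLDLR, a lipoprotein receptor induced by ATF4, was 1.93-fold higher (log2 change 0.95 ± 0.03), with 127 to 151 CPM in resistant and 62.9 to 72.8 CPM in parental cells. Among the synthetases, WARS1 had the highest log2 change (0.75 ± 0.03), and the others lay between -0.13 and 0.23.

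Outside the 40 genes, the lists are read against the 43.6% of all genes called higher and 40.2% called lower in this comparison, whose median log2 change was 0.03. All 11 other cytosolic synthetases and scaffold proteins were lower in 786-O resistant cells (median log2 change -0.37), as were 14 of 18 genes of eIF2 control (median -0.27) and 12 of 18 genes of the unfolded protein response (median -0.27). Of these last lists, 2 and 5 genes were higher, and the eIF2 kinase EIF2AK2, which senses viral RNA, was among them at a log2 change of 1.15. The further ATF4 targets included 7 that were higher and 11 that were lower, with STC2, a secreted glycoprotein, at 32.7 CPM in resistant and 248 CPM in parental cells. Of 17 mitochondrial synthetases, 4 were higher and 10 lower (median -0.16). Scaled by library totals alone, 10 of the 11 cytosolic synthetases and scaffold proteins, 12 genes of eIF2 control and 10 of the unfolded protein response were lower, with 0, 4 and 5 higher. The further ATF4 targets were then 7 higher and 7 lower, and the mitochondrial synthetases 6 higher and 9 lower.

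In A498 as labelled, 36 of 40 members were called (19 higher and 17 lower in the libraries labelled resistant), beside 88.2% of all genes, with 44.2% called higher and 44% called lower. Scaled by library totals alone, 23 were higher and 12 lower, and SARS1, MTHFD2, SESN2, CEBPG and SHMT2 were not called. Under atezolizumab, avelumab and durvalumab taken singly, 79.1%, 80.4% and 79.7% of all genes were called, and 14 members were higher and 12 lower under every antibody. Here too the share of all genes called in the same direction under every antibody was not counted. The median log2 change of the members was 0.05 and that of all genes 0.01, and 7 members changed beyond 1 in size, against 31.8% of all genes. The line of these libraries was not tested, so the values describe the libraries as labelled. The share of mitochondrially encoded counts was 1.37% to 2.11% in the libraries labelled resistant and 2.46% to 2.97% in A498 parental cells, without overlap, and its part in these differences was not tested. By role, 7 of 12 regulators were higher and 4 lower, 3 of 11 synthesis enzymes were higher and 7 lower, 4 of 7 transporters and receptors were higher and 2 lower, and 5 of 10 genes of tRNA charging were higher and 4 lower. The EPRS1 and XPOT calls, both at a log2 change of 0.05, ended when libraries were scaled by DESeq2's size factors. EPRS1 also lost its call without durvalumab replicate 1 or 2 of the libraries labelled resistant or without replicate 3 of parental atezolizumab, avelumab or durvalumab (adjusted p of 0.0503 to 0.0631), and XPOT without parental atezolizumab replicate 3 or durvalumab replicate 1 (adjusted p = 0.0579 and 0.0527).

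PHGDH, the committed step of serine synthesis, had 1.10 to 2.07 CPM with a median of 1.37 in the libraries labelled A498 resistant, against 309 to 372 CPM with a median of 334 in A498 parental cells. It was 244-fold lower (log2 change -7.93 ± 0.04, edgeR adjusted p = 5.46e-63), on 27 to 49 counts per library labelled resistant. ALDH1L2 had 0.311 to 0.666 CPM with a median of 0.45 in the libraries labelled resistant, against 67.0 to 77.6 CPM with a median of 71.3 in A498 parental cells. It was 157-fold lower (log2 change -7.30 ± 0.06, edgeR adjusted p = 2.88e-56), on 7 to 17 counts per library labelled resistant. SLC6A9 had 1.27 to 1.64 CPM with a median of 1.45 in the libraries labelled resistant, against 21.6 to 36.3 CPM with a median of 28.3 in A498 parental cells, and was 20.6-fold lower (log2 change -4.37 ± 0.07, edgeR adjusted p = 5.07e-42). For these 3 genes the levels in the libraries labelled A498 resistant were nearer to those of both 786-O states than to A498 parental cells. SLC7A11 was 2.65-fold lower, at 86.2 to 104 CPM in the libraries labelled resistant and 223 to 271 CPM in A498 parental cells (log2 change -1.41 ± 0.03). NUPR1 was 2.50-fold lower, at 45.4 to 58.4 CPM in the libraries labelled resistant and 113 to 144 CPM in A498 parental cells (log2 change -1.32 ± 0.04).

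ATF4 ran from 458 to 503 CPM with a median of 480 in the libraries labelled A498 resistant, against 385 to 439 CPM with a median of 405 in A498 parental cells. Its log2 change was 0.16 ± 0.02 (edgeR adjusted p = 1.98e-08), and it was not called under avelumab alone (0.08 ± 0.04, edgeR adjusted p = 0.0704). PCK2, the mitochondrial enzyme that makes phosphoenolpyruvate, was 2.25-fold higher, at 68.5 to 82.5 CPM in the libraries labelled resistant and 27.6 to 36.7 CPM in A498 parental cells (log2 change 1.17 ± 0.03). CTH (0.68 ± 0.04), the cationic amino acid transporter SLC7A1 (0.67 ± 0.02), DDIT4 (0.66 ± 0.02) and DDIT3 (0.62 ± 0.04) followed, none with overlap between the states. In the lists outside the 40 genes, beside 44.2% of all genes called higher and 44% called lower, 11 of 18 further ATF4 targets were higher and 5 lower (median log2 change 0.23). Of the 11 other cytosolic synthetases and scaffold proteins, 3 were higher and 8 lower (median -0.34), of 18 genes of eIF2 control 6 and 10 (median -0.10), of 18 genes of the unfolded protein response 8 and 6 (median 0.03) and of 16 mitochondrial synthetases 7 and 8 (median -0.09). Scaled by library totals alone, these lists had 13 higher and 5 lower, 3 and 7, 7 and 7, 12 and 5, and 7 and 7, in the same order.

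**Figure D4:**
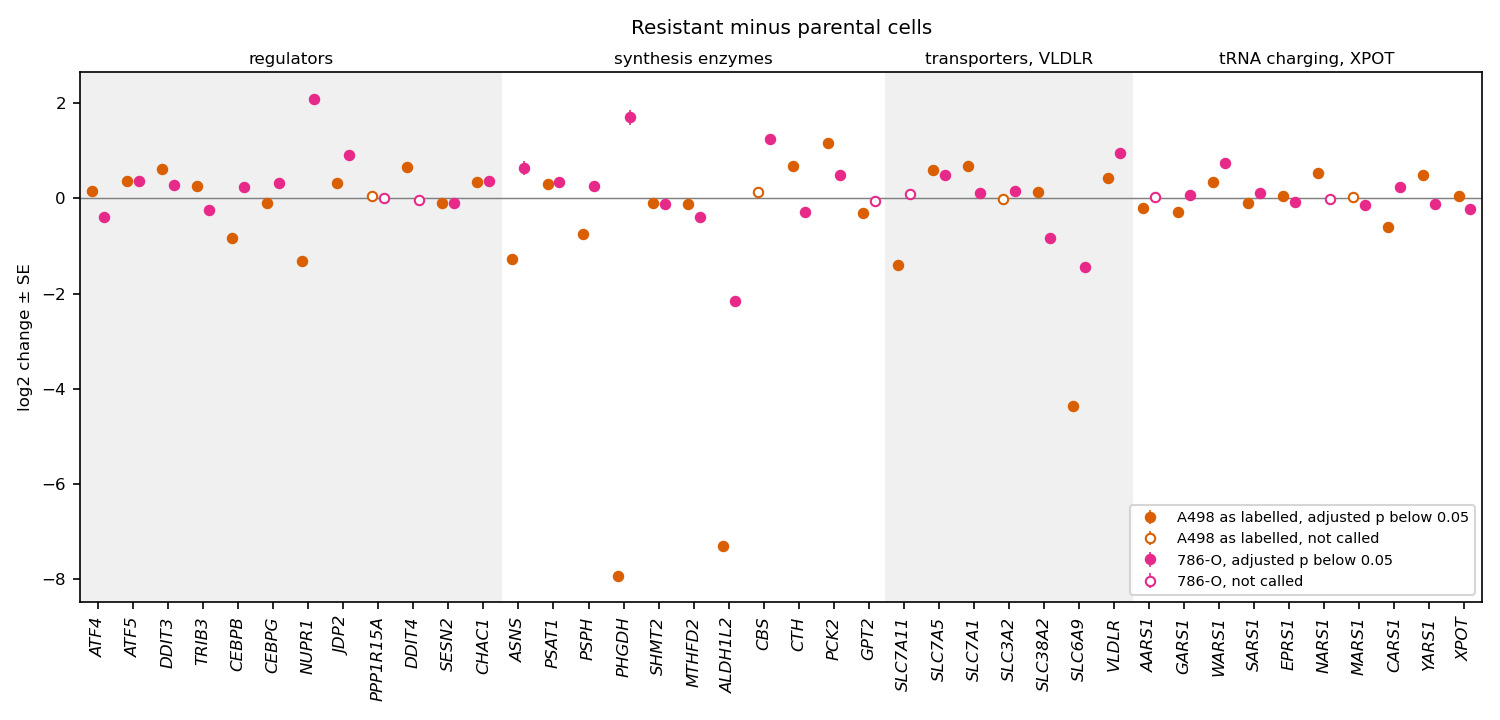
Log2 change ± SE of the 40 genes from parental to resistant cells, for A498 as labelled (left point of each pair) and 786-O (right point), over 18 libraries per line; open points did not pass the threshold. PHGDH (-7.93 and 1.71) and NUPR1 (-1.32 and 2.08) changed in opposite directions, while ALDH1L2 (-7.30 and -2.15) and SLC6A9 (-4.37 and -1.44) were lower in both comparisons.

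Set side by side, 10 members were higher in resistant cells of both lines as labelled (24.7% of all genes were), 5 were lower in both (21.7%), and 16 were called in opposite directions (28.8%). Those higher in both were ATF5, CHAC1, DDIT3, JDP2, PCK2, PSAT1, SLC7A1, SLC7A5, VLDLR and WARS1. Those lower in both were ALDH1L2, MTHFD2, SESN2, SHMT2 and SLC6A9, of which MTHFD2, SHMT2 and ALDH1L2 belong to mitochondrial folate metabolism. Scaled by library totals alone, only ALDH1L2 and SLC6A9 were lower in both, 14 members were higher in both, the 10 named among them, and 13 were called in opposite directions. Shares of all genes were not counted under that scaling. ATF4 was among the genes of opposite direction. A test of the difference between the 2 changes called 34 members, beside 80.4% of all genes. The members that were not called there were PSAT1, SHMT2, CHAC1, SESN2, ATF5 and PPP1R15A, with differences in log2 change of -0.06 to 0.02.

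Line against line, 26 members were higher and 11 lower in A498 parental than in 786-O parental cells, beside 85.2% of all genes called and 41.7% called higher. Scaled by library totals alone, 29 were higher and 9 lower, and 52.4% of all called genes were higher, against 49.0% with TMM. PHGDH stood at 337 ± 22.4 CPM in A498 parental and 0.265 ± 0.0858 CPM in 786-O parental cells (SD, n = 9 each), a log2 change of 10.27 ± 0.05. ALDH1L2 (4.76), NUPR1 (4.42), SLC7A11 (2.11) and SLC6A9 (1.83) were also higher in A498 parental cells, whereas PCK2 (-0.76), DDIT4 (-0.64), YARS1 (-0.63), SLC7A1 (-0.52) and ATF4 (-0.44) were lower. Between the libraries labelled A498 resistant and 786-O resistant cells, 29 members were higher and 5 lower in the libraries labelled A498 resistant, beside 65.9% of all genes called and 32.8% called higher. Scaled by library totals alone, 32 were higher and 3 lower there, and 53.6% of all called genes were higher, against 49.8% with TMM. Differences between the libraries labelled A498 resistant and 786-O resistant cells were smaller, with a median size of 0.22 over the members, against 0.44 between the parental lines. Over all genes the medians were 0.26 and 0.60. CTH (1.08), NUPR1 (1.03) and SLC6A9 (-1.08) were the 3 members beyond 1 in size.

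**Figure D5:**
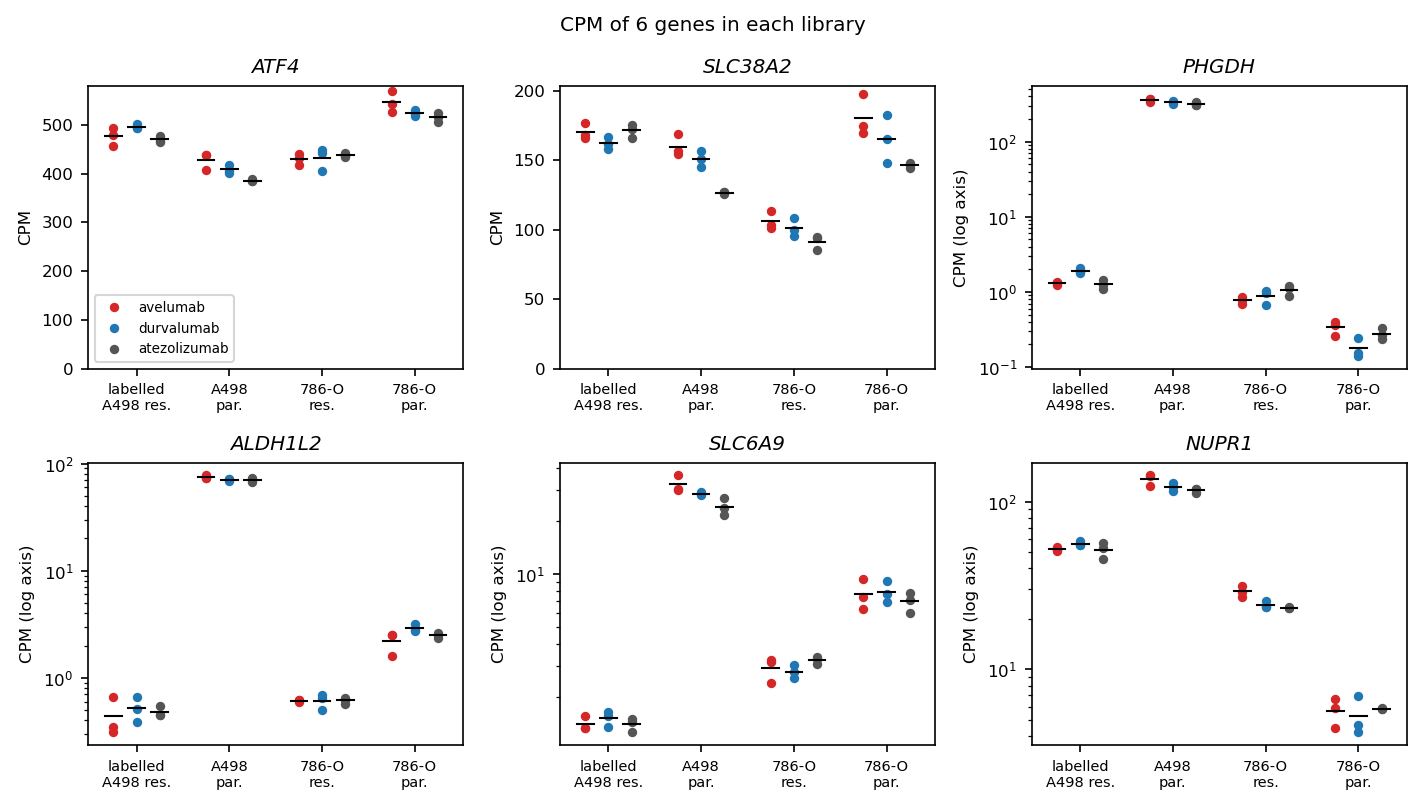
CPM of ATF4, SLC38A2, PHGDH, ALDH1L2, SLC6A9 and NUPR1 in each library by cell state and antibody, with bars at the mean of 3 libraries; the last 4 panels have log axes. Within A498 parental cells SLC38A2 lies at 126 to 127 CPM under atezolizumab and at 145 CPM or more under the other antibodies, while PHGDH and ALDH1L2 differ far more between cell states than between antibodies.

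The summed level of the 40 genes differed between cell states, with overlap between A498 parental and 786-O resistant cells. It ran from 10830 to 11224 CPM over the 9 libraries labelled A498 resistant, 8998 to 10247 CPM in A498 parental, 9138 to 9680 CPM in 786-O resistant and 7568 to 8640 CPM in 786-O parental cells. Within A498 parental cells it was 9694 to 10247 CPM under avelumab and 9528 to 9837 CPM under durvalumab, against 8998 to 9447 CPM under atezolizumab, so neither antibody overlapped with atezolizumab. In each of the other 3 states the sums under avelumab overlapped with those under atezolizumab. SLC7A5 alone supplied the largest share of each sum.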

How the data were processed

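The 40 genes and the lists beside them were chosen with earlier results of these data known. The deposited table holds the authors' raw, unnormalized counts for 36 libraries, and each column was used. The submitters' processing notes name featureCounts 1.6.3, HISAT2 2.1.0, Trimmomatic 0.36.6, bcl2fastq 2.19.0 and the build GRCh38, and per the labels' protocols a stranded kit selected polyadenylated RNA. Which annotation release and strand setting went into the counting is not given. Reads carried no molecular identifiers. Of 45478 identifiers, 45283 had a symbol and 43799 were in GENCODE 29, which gave coordinates.

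The main test was edgeR 4.0.16 under R 4.3.3 (filterByExpr with count minimum 10 and total minimum 15, TMM, robust quasi-likelihood), tested on simulated data first. Fits used the 9 libraries of a state for antibody pairs, the 18 of a line for resistance and its interaction with antibody, and all 36 across lines. Given in full were ATF4, up to 4 called members per antibody pair with the largest change, and the 5 highest and 5 lowest members for resistance that were called overall and under each antibody. Other members named with values were chosen after those were seen. Alternatives were DESeq2 1.42.0, its size factors in edgeR, no filter, a strict filter (at least 5 CPM in 3 libraries), a replicate block, leaving out each library and, added after seeing the data, scaling by library totals alone (no TMM). CPM used raw totals. The result of 1 renal line marker is not reported here.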

Additional observations from a re-analysis of the deposited data

Results flagged for a closer look

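The avelumab minus atezolizumab difference depended on the cell state for SLC38A2 (-0.33), PSAT1 (-0.30) and GPT2 (-0.31), each given as the log2 change in the libraries labelled A498 resistant minus that in A498 parental cells. For durvalumab minus atezolizumab the same held for SLC38A2 (-0.31). In 786-O the avelumab difference of MARS1 was lower in resistant than in parental cells (-0.22). All 5 passed edgeR's test of the difference itself. Over 24 alternatives SLC38A2 kept both calls, with values of -0.36 to -0.29 for avelumab and -0.33 to -0.28 for durvalumab. The PSAT1 call ended under 6 (highest adjusted p = 0.156), the GPT2 call under 2 (highest adjusted p = 0.087) and the MARS1 call under 10 (highest adjusted p = 0.131). For 34 of the 40 members, edgeR called the difference between the resistant minus parental changes of 786-O and of A498 as labelled. Batch and state cannot be told apart.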

How the results depend on the processing

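For 100 log2 changes (the called members of the antibody pairs, of resistance and of its interaction with antibody), 2021 of 2171 alternative values kept the call and 147 lost it, the losses falling on 35 of them. These counts pool unlike comparisons and do not describe the antibody calls alone. Antibody calls lost up to 11 of 15 alternatives (CEBPG in A498 parental cells) and interaction calls up to 10 of 24 (MARS1 in 786-O). Resistance calls lost at most 8 of 24 (EPRS1 in A498 as labelled). In 786-O resistance, EPRS1 reversed with library totals alone (0.0383) and under the strict filter (0.004), and SESN2 with library totals alone (0.0049). In 149 of 168 settings other than omissions, counts of called members stayed within 1.5 times. Without a filter the counts were 5 (durvalumab against atezolizumab) and 2 (durvalumab against avelumab) in A498 parental cells, 3, 1 and 1 in 786-O resistant cells (avelumab against atezolizumab, durvalumab against atezolizumab, durvalumab against avelumab), 9, 4 and 4 in 786-O parental cells for the same pairs, 5 for the 786-O interaction with avelumab and 1 for the avelumab difference between parental lines. DESeq2 gave 1 (786-O resistant, durvalumab against avelumab), 1 (786-O parental, durvalumab against atezolizumab) and 4 (786-O interaction with avelumab). Library totals alone gave 1, VLDLR, for durvalumab against atezolizumab in 786-O parental cells. The strict filter gave 0 for durvalumab against atezolizumab in 786-O parental cells. In the resistance comparisons it left out PHGDH and ALDH1L2 in 786-O, and ASNS in both lines. The replicate block gave 2 and 1 in 786-O resistant cells (avelumab against atezolizumab, durvalumab against avelumab), 1 and 0 in 786-O parental cells (avelumab and durvalumab against atezolizumab) and 15 in A498 parental cells (avelumab against atezolizumab). With the block the calls of JDP2 (adjusted p = 0.114), MARS1 (0.0581), DDIT3 (0.12) and PPP1R15A (0.0696) ended in 786-O parental cells, and those of SARS1 (0.0681) and CEBPG (0.0768) in A498 parental cells. Correlations of the deviations of same-numbered libraries had medians of -0.02 (labelled A498 resistant, -0.28 to 0.35), -0.01 (A498 parental, -0.27 to 0.15), 0.08 (786-O resistant, -0.15 to 0.20) and -0.08 (786-O parental, -0.34 to 0.10), with negative pairs in each state, so the numbers were not taken to pair libraries.

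Leaving out each library gave 4 to 21, 1 to 5 and 0 to 4 members for the 3 pairs in A498 parental cells, 0 to 2, 0 to 0 and 0 to 2 in 786-O resistant, 1 to 6, 0 to 2 and 0 to 1 in 786-O parental and 0 to 0, 0 to 0 and 0 to 2 in the libraries labelled A498 resistant. For the interactions with avelumab it gave 1 to 3 (A498) and 0 to 3 (786-O). For resistance it gave 34 to 37 (A498 as labelled) and 34 to 35 (786-O). The causes were not tested. DESeq2's size factors moved the median of all genes by at most 0.06 (log2), library totals by at most 0.11. Depth limits PHGDH, ALDH1L2 and ASNS outside A498 parental cells, and antibody differences rest on 3 libraries a group.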
